A study of Homo sapiens with 6 samples.

Results

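The regions described here are the shared DEK intervals over 50 kb from any TSS: stretches where a DEK peak of replicate 1 and a DEK peak of replicate 2 overlapped by at least 1 bp, on chromosomes 1 to 22 and X, with the middle more than 50000 bp from the nearest transcription start site (TSS) of any annotated transcript. There were 253 of them among 4433 shared intervals on these chromosomes and 4453 shared intervals in all, and they came from 246 peaks of replicate 1 and 253 peaks of replicate 2. DEK was precipitated in 2 samples of U937, an established human myeloid cell line that grows in suspension, without any genetic change or treatment named for the samples. From the same line came 2 precipitations of H3K4me3 and 2 samples of non-precipitated input chromatin, and the peak lists of the 4 precipitations were analysed. All come from 1 cell line, and the lists hold no expression values with which the markers of the line could be checked. The study's methods call the 2 experiments independent, but neither they nor the labels say whether separate cultures were used, so the spread between them may be technical.

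DEK is an abundant chromatin protein that binds DNA and histones and changes the supercoiling of DNA. H3K4me3, the trimethylated lysine 4 of histone H3, marks active promoters. Much of the sequence far from genes is made of interspersed repeats, of which the short Alu elements are the most numerous in the human genome. Alu elements hold internal promoter sequence for RNA polymerase III, and because the copies are so alike, short reads from inside one copy can match many others.

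For each peak the MACS program gave the number of tags (reads) in it, a score (its p-value as -log10, multiplied by 10) and a fold enrichment over the local background. The lists hold no total read numbers, and the study's methods give only a minimum for all samples, so the depth of each list is unknown here. The lists themselves differed greatly in length, with 15017 peaks in replicate 1 and 152779 in replicate 2. At over 50 kb from a TSS replicate 1 had 1354 peaks and replicate 2 had 10658, of which 18.1% (95% Wilson interval 16.1% to 20.2%) and 2.36% (2.08% to 2.66%) respectively had a partner in the other list. All intervals given with shares are Wilson intervals and cover counting error only. The false discovery rate given by MACS was 100% for every replicate 1 peak behind the distal intervals, as for all 4433 shared intervals, and between 0.74% and 2.34% for the replicate 2 peaks.

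The sequence at the middle of the distal intervals was examined first, because it is the property in which most of them were alike. Each 31-base word (31-mer) of an interval was counted in the whole genome on both strands. A 31-base word of the Alu element that many of the intervals hold was then searched around the middle of every interval, on both strands, and is called the Alu word here. It was taken from the distal intervals themselves, as their 31-mer with the most genome copies, short tandem repeats left out. Of the 10 distal intervals with the highest lower score of the 2 replicates, 2 held the Alu word. The scores in replicates 1 and 2 were 115.76 and 187.64 for the interval in an intron of AKAP13, which codes for an anchoring protein of protein kinase A. They were 111.11 and 115.97 for the interval between ALG10 and ALG10B on chromosome 12, 3595 bp from an assembly gap of over 1 Mb.

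Within 300 bp on either side of the middle, 163 of the 253 distal intervals held the Alu word with up to 6 mismatches, or 64.4% (58.4% to 70.1%), against 43.7% of all 4433 shared intervals. The share rose with the distance from a TSS. It was 19.8% (17.6% to 22.2%) up to 1 kb, 49.5% (47.2% to 51.9%) at 1 to 10 kb and 53.4% (50.6% to 56.1%) at 10 to 50 kb. The genome itself shows another order: cut into tiles of the same length as that window, 16.2% of the tiles up to 1 kb from a TSS held the word, 22.1% at 1 to 10 kb, 15.6% at 10 to 50 kb and 8.94% at over 50 kb. The distal intervals thus held the word most often in the class of sequence that has it least often. Because the word was taken from the distal intervals, this contrast is a description only.

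Peaks that were in 1 DEK list only differed in this respect by list. Of the distal replicate 2 peaks without a partner, 60% (59.1% to 61%) held the word, close to the share of the shared intervals. In replicate 1 the share was 26.4% (23.9% to 29.1%). Over all distal peaks, with and without a partner, it was 32.8% in replicate 1 and 60.1% in replicate 2. Accordingly, a distal replicate 1 peak with the word had a partner in replicate 2 in 34% of 444 cases (29.8% to 38.5%), and one without it in 10.3% of 910 (8.52% to 12.5%). For replicate 2 the corresponding shares were 2.45% and 2.21%, and their intervals overlap. The H3K4me3 precipitations give a reference from another antibody: 17.3% (16% to 18.6%) of 3341 distal peaks held the word in replicate 1 and 8.06% (6.96% to 9.32%) of 2047 in replicate 2.

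The repeat lay in the middle of the intervals and not in their surroundings. Among the distal intervals a mean of 29.9% of the 31-mers within 100 bp of the middle had 100 or more copies in the genome, against 2.02% of those over 500 bp away. For the distal peaks of replicate 2 alone the same means were 31.7% and 4.27%, and for those of replicate 1 alone 7.79% and 2.11%. At the shared intervals up to 1 kb from a TSS they were 5.79% and 3.17%, a smaller rise, although 19.8% of these held the Alu word. The shared intervals at 1 to 10 kb and 10 to 50 kb were not profiled, and 49.5% and 53.4% of them held the word. A block in the middle is thus not shown to be particular to the distal intervals. The plot of high-copy sequence by distance shows this block and its width.

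**Figure D1:**
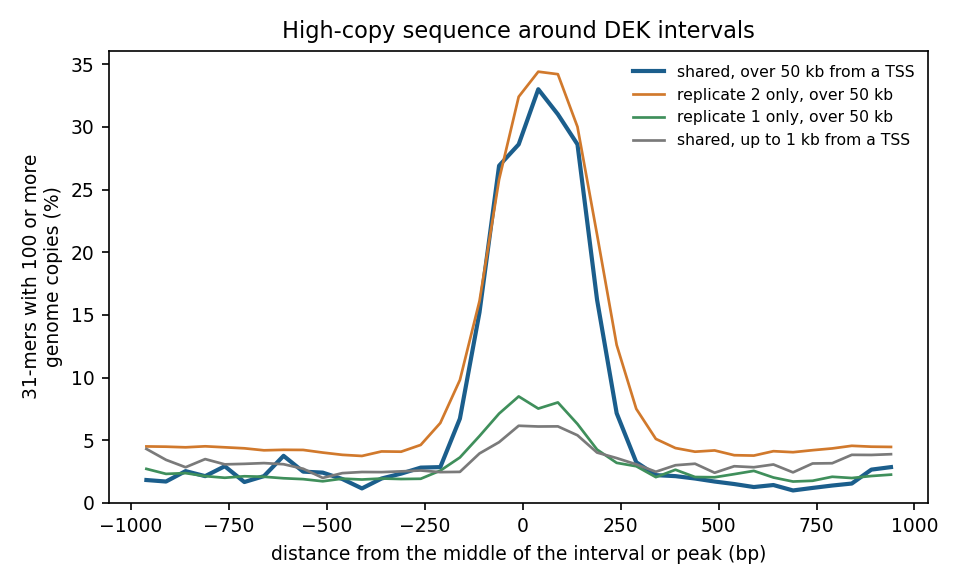
The vertical axis gives the percent of 31-mers with 100 or more genome copies, in bins of 50 bp by distance from the middle of the interval or peak (horizontal axis, bp), as 1 line for each of 4 groups. The distal shared intervals (thick line) and the distal peaks of replicate 2 alone rise to a narrow block over the middle, with means of 29.9% and 31.7% within 100 bp, while the other groups stay at 7.79% and 5.79%.

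The position of the word changed sides with its strand. The word was on the forward strand in 79 of the 163 intervals and on the reverse strand in 84. On the forward strand it lay before the middle in 75 intervals (median -86 bp), and on the reverse strand after the middle in 76 (median 155.5 bp). A repeated middle did not leave the intervals without unique sequence. In the intervals with the word a median of 56.1% of the 31-mers occurred once in the genome, against 96.8% in the 90 intervals without it. Only 15 of the 253, or 5.93% (3.63% to 9.55%), had a median of 10 or more copies over their 31-mers, against 4.04% of all shared intervals. The absence of the word does not mean the absence of repeats, since 31 of the 90 intervals without it held another 31-mer of 1000 or more copies. The study's methods give default settings for the alignment with Bowtie 2, which then reports 1 place for a read that fits several copies equally well, and the part of this in these peaks was not tested.

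The intervals with the word carried fewer tags. Their median was 28 tags in replicate 1 (quartiles 25 to 39.5) and 21 in replicate 2 (17 to 29), while the intervals without it had 59.5 (31 to 107.5) and 25 (19 to 49.8). The replicate 1 peaks behind them were narrower, with a median of 733 bp against 1190 bp. The fold enrichment was not lower, with medians of 5.65 and 5.09 in replicates 1 and 2 with the word and 5.45 and 4.54 without it. Fewer tags with the word were not particular to the distal intervals. The replicate 1 medians with and without it were 40 and 75 at 10 to 50 kb and 47 and 85 at 1 to 10 kb. Up to 1 kb from a TSS they were 74 and 91. These are descriptions of 2 peak lists, and no test between the groups was made.

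Over all 253 distal intervals the median score was 62.5 in replicate 1, with a range of 50.1 to 1103. In replicate 2 the median was 92.2 and the range 50.2 to 330.4, and both lists start at a score of about 50. The 4180 other shared intervals had medians of 72.1 and 87.6, and those of them at 10 to 50 kb had 67.8 and 83.4. Tags were also fewer than at the other shared intervals, with medians of 33 against 68.5 in replicate 1 and 22 against 30 in replicate 2. At 10 to 50 kb the median tags were 53 and 26, closer to the distal ones. The 2 summits of an interval lay close together: 59.7% (53.5% to 65.5%) of the pairs were within 100 bp, with a median distance of 76 bp, against 39.6% (38.1% to 41.1%) and 163 bp at the other shared intervals. In the nearest class, 10 to 50 kb, 44.9% (42.1% to 47.6%) were within 100 bp. The peaks behind the distal intervals were also narrower than the others. Median widths were 817 against 1296 bp in replicate 1 and 692 against 866 bp in replicate 2. At 10 to 50 kb they were 1107 and 762 bp. Narrower peaks leave less room between summits, and the part of this was not tested. The scores of the 2 replicates were nearly unrelated, with a Spearman correlation of 0.07 over the 253 pairs, while that of the tags was 0.59. The 4180 other shared intervals gave 0.07 and 0.64, so the distal ones did not stand apart in this. These are correlations across regions that share the same 2 libraries and, for 7 of the pairs, a replicate 1 peak that is counted again, and they are given as a description. The scores are cut at about 50 in both lists, and 135 of the 253 intervals had a lower score under 60. Widths in replicate 1 ran from 448 to 6996 bp, and wider peaks can hold more tags. The part of the cut and of the widths in the correlations was not tested.

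**Figure D2:**
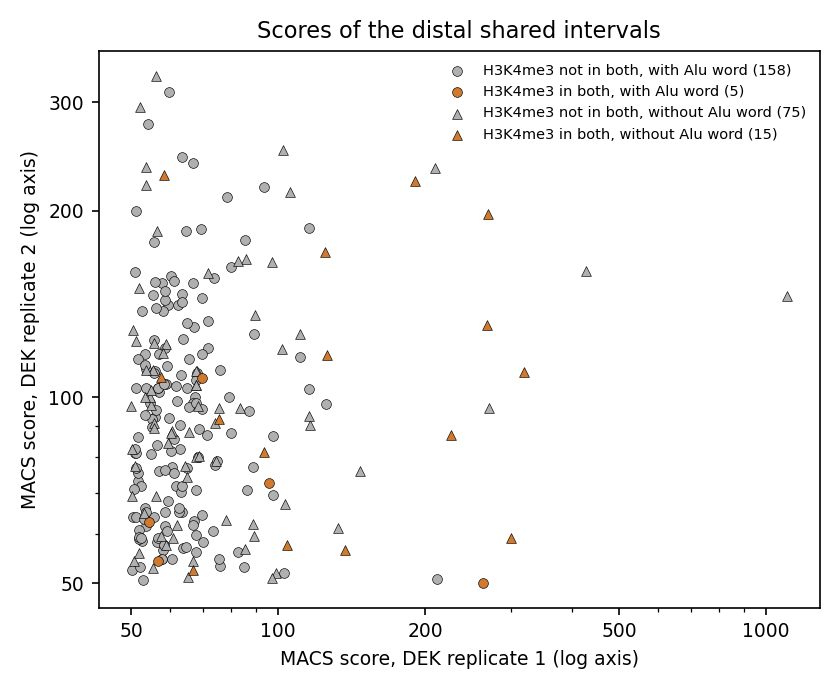
Each point is 1 of the 253 distal shared intervals, with the MACS score in DEK replicate 1 (horizontal, log axis) and in DEK replicate 2 (vertical, log axis), as a circle with and a triangle without the Alu word and in orange where H3K4me3 peaks of both precipitations overlap it. Most points lie near the lower end of replicate 1 (median 62.5) at any score in replicate 2, and 13 of the 16 intervals with both scores at 100 or more are triangles.

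H3K4me3 was not used to choose the intervals, and it overlapped fewer of them than of the shared intervals nearer to a TSS. The 2 H3K4me3 lists had 3341 and 2047 peaks over 50 kb from a TSS, where there are 511.5 Mb of sequence. The share of that sequence under the mark was not computed. The shares below therefore do not say whether the mark is scarce at the intervals for their distance. Peaks of both H3K4me3 precipitations overlapped 20 of the 253 intervals, or 7.91% (5.18% to 11.9%), against 33.7% of all shared intervals. The share fell with distance, from 70.7% (68% to 73.3%) up to 1 kb over 23.8% (21.9% to 25.8%) at 1 to 10 kb and 18.6% (16.6% to 20.9%) at 10 to 50 kb. The mark was in replicate 1 alone at 22 further intervals and in replicate 2 alone at 1, which left 210 without it in either list. The replicate 1 list of H3K4me3 is the longer one, with 47523 peaks against 29335, and with it alone the share was 16.6%. Without the demand for a partner, 22.5% (20.4% to 24.8%) of the 1354 distal peaks of DEK replicate 1 and 1.78% (1.55% to 2.05%) of the 10658 of DEK replicate 2 overlapped H3K4me3 of both precipitations. Among intervals that covered at least 50% of each DEK peak the share was 2.99% (1.38% to 6.36%).

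Intervals with and without the Alu word differed in this mark. Among the distal intervals 15 of the 90 without the word overlapped H3K4me3 peaks of both precipitations, or 16.7% (10.4% to 25.7%), and 5 of the 163 with it, or 3.07% (1.32% to 6.98%). The same order held in every other distance class, with 76.2% against 48.7% up to 1 kb, 32.6% against 14.8% at 1 to 10 kb and 28.8% against 9.69% at 10 to 50 kb. Where neither the word nor any other 31-mer of 1000 or more copies was present, 13 of 59 distal intervals had the mark in both lists, or 22% (13.4% to 34.1%). The nearer classes were not split by such other 31-mers. Without the word alone, the share at 10 to 50 kb was 28.8%, which is inside the interval of the 22%, and up to 1 kb it was 76.2%. Repeated sequence also limits where H3K4me3 reads can be placed, and its part in this difference was not tested.

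**Figure D3:**
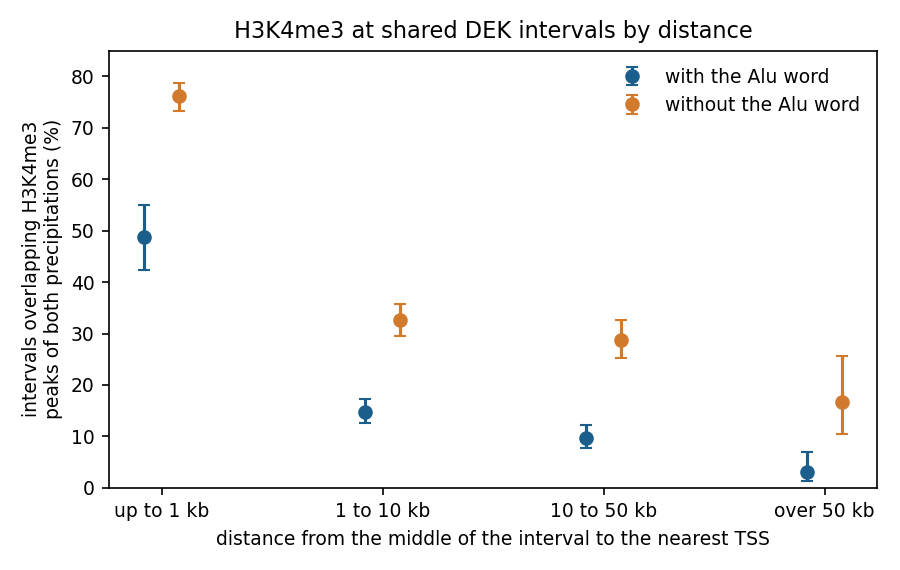
The vertical axis gives the percent of shared DEK intervals that overlap H3K4me3 peaks of both precipitations, and the horizontal axis the distance class of the interval, with the Alu word in blue and without it in orange. Points are shares and bars 95% Wilson intervals. In each of the 4 classes the share is lower with the word, and over 50 kb it is 3.07% with and 16.7% without it.

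The strongest distal intervals were mostly not of the Alu kind. Of the 16 that scored 100 or more in each list, 3 held the word and 6, or 37.5% (18.5% to 61.4%), overlapped H3K4me3 of both precipitations. The narrowest of the 16 was an overlap of only 5 bp between the peaks of the 2 lists, and it was among those with the word. Among the other 237, 160 held the word and 14, or 5.91% (3.55% to 9.67%), had the mark. The 6 of high score with the mark include intervals in SORCS2, ZMIZ1 and TNFRSF21 and, outside genes, by TLE3 and between EYS and ADGRB3. The sequences under the replicate 2 summit of the intervals in SORCS2 and ZMIZ1 and by TLE3 are shown because they lack the repeat, with capitals for any of the short motif words described further on and 75 bp on either side of the summit, on the forward strand of GRCh37.
SORCS2 intron, chr4:7651377-7651527: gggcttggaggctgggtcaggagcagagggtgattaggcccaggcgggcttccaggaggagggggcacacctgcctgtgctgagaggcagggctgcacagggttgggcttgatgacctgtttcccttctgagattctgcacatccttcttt
ZMIZ1 intron, chr10:80897702-80897852: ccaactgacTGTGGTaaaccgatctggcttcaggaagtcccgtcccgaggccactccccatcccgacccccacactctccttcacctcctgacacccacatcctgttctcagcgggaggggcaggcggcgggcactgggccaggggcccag
by TLE3, chr15:70559056-70559206: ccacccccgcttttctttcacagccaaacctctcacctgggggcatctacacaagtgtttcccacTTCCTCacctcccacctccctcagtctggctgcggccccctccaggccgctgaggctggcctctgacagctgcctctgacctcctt

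In these windows the ZMIZ1 interval held the RUNX word and the interval by TLE3 the PU.1 core, and the SORCS2 interval none of the words searched.

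The interval in an intron of SORCS2, which codes for a sortilin-family receptor, was the widest with 3557 bp (chr4:7648974-7652530). It held 411 tags in replicate 1 and 166 in replicate 2, with scores of 269.51 and 198.11, and lay 85255 bp from the nearest TSS. Another distal interval in the same gene was far weaker, with 41 and 17 tags and no H3K4me3 peak in either list. ZMIZ1, which codes for a transcriptional coactivator of the PIAS-like family, held 4 distal intervals in introns, between chr10:80886437 and 80898364. Their tags ran from 106 to 140 in replicate 1 and from 33 to 76 in replicate 2. All 4 overlapped an H3K4me3 peak of replicate 1 and consisted of sequence found once in the genome, and the last of them, with scores of 190.89 and 223.96, had the mark in both lists.

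The interval at chr15:70558471-70559942 lay 168691 bp from TLE3, which codes for a Groucho-type corepressor, and had 109 and 101 tags. A weaker interval 327577 bp from TLE3, with scores of 137.28 and 56.64, also had the mark in both lists. At chr6:67741106-67741280, in a stretch with no protein-coding gene for over 1 Mb on either side, the scores were 126.07 and 116.93. In an intron of TNFRSF21, which codes for death receptor 6, the interval had scores of 319.48 and 109.86 and summits 60 bp apart.

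The next intervals with H3K4me3 in both lists had a score under 100 in at least 1 replicate. KIRREL3, which codes for a cell adhesion protein of the immunoglobulin superfamily, had an intronic interval with scores of 226.23 and 86.77. The interval at chr7:41499244-41499776 between SUGCT and INHBA had 93.52 and 81.57, and that in an intron of TRERF1 had 75.6 and 92.14. The interval at chr1:120751988-120752640, 108948 bp from NOTCH2 and 85442 bp from FAM72B, needs care. It lies 733121 bp from an assembly gap of over 1 Mb, and only 8.8% of its 31-mers occurred once in the genome. Such gaps lay within 1 Mb of 4 distal intervals, of which 2 had the mark in both lists.

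Other intervals of high score had no H3K4me3 peak or had one in replicate 1 alone. The highest lower score of all was at chr13:87687995-87689661, between SLITRK6 and SLITRK5 and without a peak of the mark, with scores of 210.05 and 234.93, 195 and 100 tags and summits 19 bp apart. In an intron of NTN1, the netrin 1 gene, the score of 1102.75 in replicate 1 was the highest of any distal interval and that in replicate 2 was 145.63, with H3K4me3 in replicate 1 alone. An interval between SLITRK1 and SLITRK6, with neither the mark nor a 31-mer of 1000 or more copies and with scores of 110.83 and 126.39, is shown for comparison with those above, in the same form, and held none of the short motif words in the stretch shown.
between SLITRK1 and SLITRK6, chr13:86212419-86212569: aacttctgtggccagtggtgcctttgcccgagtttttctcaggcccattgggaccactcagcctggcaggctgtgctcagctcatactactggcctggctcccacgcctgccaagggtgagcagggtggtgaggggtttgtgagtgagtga

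Short words of transcription factors of myeloid cells were searched up to 150 bp on either side of the middle of each interval, on both strands. The PU.1 core, GAGGAA, was in 10.7% (7.44% to 15.1%) of the distal intervals, against 21.2% of all shared intervals and 22.1% of the genome tiles of that length over 50 kb from a TSS. With the Alu word it was in 7.36% (4.26% to 12.4%) and without it in 16.7% (10.4% to 25.7%). The AP-1 word TGANTCA was in 5.93% of the distal and 7.17% of all shared intervals against 9.92% of the tiles, and the C/EBP word TTGCNNAA in 7.51% and 9.27% against 17.5%. The GATA word AGATAA was in 8.3% (5.49% to 12.4%) and 8.1% against 24.8% of the tiles. Over all distal intervals these 3 words were thus found less often than in sequence at the same distance. Their shares were near those over all shared intervals, so that this is not particular to the distal ones. Without the Alu word the shares were 6.67% (3.09% to 13.8%) for AP-1, 14.4% (8.64% to 23.2%) for C/EBP and 10% (5.35% to 17.9%) for GATA. With it they were 5.52%, 3.68% and 7.36%. In the intervals without the Alu word only GATA had a Wilson interval below the share of the tiles. The RUNX word TGTGGT was in 18.6% of both the distal intervals and the tiles and in 22.1% of all shared intervals. A word in a window is a description and not a binding site.

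The SP1 word GGGCGG went the other way, with 24.1% (19.3% to 29.7%) of the distal intervals against 1.93% of the tiles, but 23.6% of all shared intervals held it too. Among the distal intervals it was in 31.3% (24.7% to 38.8%) of the intervals with the Alu word and 11.1% (6.15% to 19.3%) of those without it. In 46 of the 51 intervals that held both, the SP1 word lay within 40 bp of the middle of the Alu word. The E-box word CACGTG was in 3.16% (1.61% to 6.11%) against 5.66% of all shared intervals and 2.14% of the tiles, and all but 1 of its 8 intervals lacked the Alu word. Of 3 other kinds of repeat searched, no distal interval held 3 units of the satellite II and III repeat or the CENP-B box of centromeric DNA, where a count of 0 of 253 allows a share of up to 1.19% (3 counts) or, by the Wilson limit, 1.5%. Neither was in any of the 4433 shared intervals, and they were in only 0.0378% and 0.0528% of the tiles. Their absence therefore does not set the distal intervals apart. A run of 6 CA units was in 2 distal intervals, or 0.791%, against 0.744% of all shared intervals.

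Relative to the genome, distal intervals were sparse. The sequence over 50 kb from a TSS made up 511.5 Mb or 18% of the sequence and held 5.71% of the shared intervals, 0.495 per Mb. The corresponding densities were 5.44 per Mb up to 1 kb, 1.79 at 1 to 10 kb and 1.12 at 10 to 50 kb. Distances ran from 50015 to 522579 bp with a median of 81031 bp, and 87 intervals were over 100000 bp away. Just inside the limit were intervals at 50015, 50020 and 50229 bp with 25, 26 and 89 tags in replicate 1 and 17, 22 and 34 in replicate 2. Just outside were intervals at 49974, 49440 and 49355 bp with 28, 140 and 23 tags in replicate 1 and 22, 24 and 20 in replicate 2.

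The density differed between chromosomes. Chromosome 13 held 38 of the 253 intervals on 26.3 Mb of distal sequence, 1.44 per Mb, against 0.443 per Mb on all others together. Next came chromosomes 21, 7, 15 and 3 with 0.905, 0.847, 0.845 and 0.835 per Mb, of which chromosome 21 rests on 4 intervals and chromosome 15 on 6. No distal interval lay on chromosomes 19 and 22, which have only 1.26 and 1.35 Mb of such sequence, or on chromosome X, which has 39.5 Mb. Chromosome X also had few distal peaks in the single lists, 0.531 per Mb in replicate 1 and 7.61 per Mb in replicate 2, against 2.03 and 22.2 on chromosome 1. The distal peaks of chromosome 13 were dense in replicate 1, at 7.98 per Mb, and not in replicate 2, at 19.9 per Mb. On chromosome 13 the intervals held the Alu word less often, in 17 of 38 or 44.7% (30.1% to 60.3%), than elsewhere, in 146 of 215 or 67.9% (61.4% to 73.8%).

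**Figure D4:**
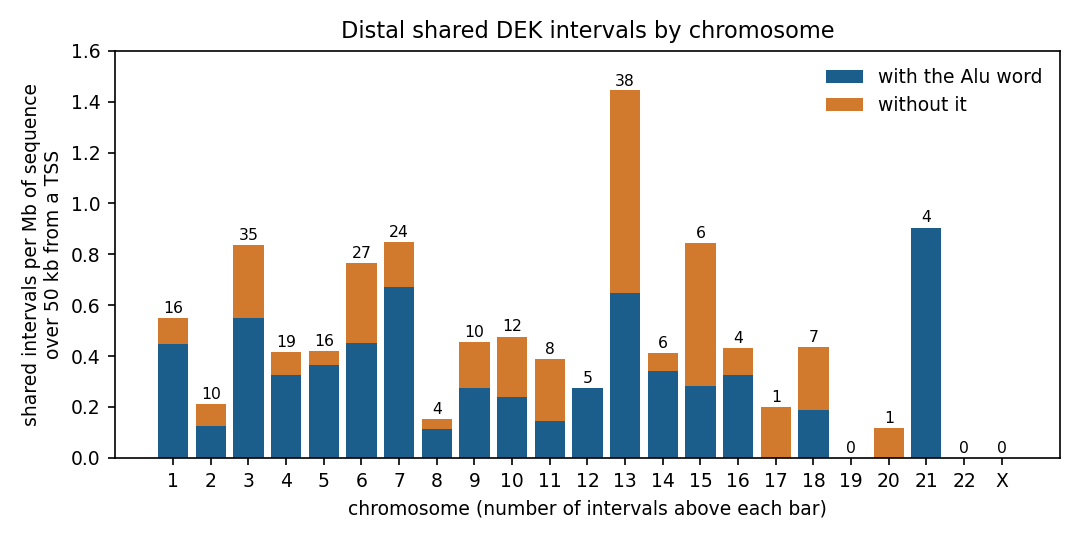
Bars give the number of distal shared intervals per Mb of sequence over 50 kb from a TSS (vertical axis) on each chromosome (horizontal axis), split into those with the Alu word (blue) and without it (orange), with the number of intervals above. Chromosome 13 stands highest with 38 intervals and 1.44 per Mb, and chromosomes 19, 22 and X have none.

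Most of the chromosome 13 intervals lay in the gene-poor stretch from SPRY2 to beyond SLITRK5. In this stretch there were 31, with median tags of 86 and 49 in replicates 1 and 2, against 30 and 20 in the other 222 distal intervals. The bounds of this stretch were chosen after the positions were seen. The 2 shared intervals farthest from any TSS were here, at 522579 and 515726 bp, with 76 and 55 tags and with 52 and 61 tags in replicates 1 and 2. The second of them is an overlap of only 15 bp, with summits 1401 bp apart. The others of the 5 farthest were at 478565 bp on chromosome 6 between BCKDHB and TENT5A, at 406660 bp on chromosome 13 and at 368262 bp on chromosome 1 between AMY1C and PRMT6, and all 3 held the Alu word.

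Distal intervals mostly stood alone. With intervals joined where they were at most 100 kb apart, 200 stood alone, 32 formed 16 pairs and 21 formed 6 runs of 3 or more. The run of 5 on chromosome 3, between FAM43A and XXYLT1, is 1 replicate 1 peak of 6996 bp with 333 tags that met 5 replicate 2 peaks of 29 to 86 tags, so it counts as 1 observation in replicate 1. The ZMIZ1 run of 4 was described above, and its first 2 intervals also share a replicate 1 peak. The runs of 3 between LINGO2 and ACO1 on chromosome 9 and between VRK1 and BCL11B on chromosome 14 had 13 to 42 tags in replicate 2. At PHLPP1, a phosphatase gene on chromosome 18, 1 interval lay in an intron and 2 lay 1514 and 2224 bp past the end of the gene, with 28 to 41 tags in replicate 1 and 16 to 25 in replicate 2.

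The distal intervals lay outside genes more often than inside them. The middle lay inside an annotated gene for 93 intervals, or 36.8% (31.1% to 42.9%), against 72.3% of all shared intervals and 65.1% (62.4% to 67.7%) at 10 to 50 kb. The distance rule itself leaves out gene sequence near any start, so these contrasts are largely set by the rule. Among distal peaks without a partner the share was 46.1% (43.2% to 49%) in replicate 1 and 43.9% (43% to 44.9%) in replicate 2. The middle of the distal intervals was in a protein-coding gene for 69, spread over 61 genes, and in an exon for 2. Besides ZMIZ1, with 4, genes that held 2 each were KCNIP4, OTUD7A, RBPJ and SORCS2. In RBPJ, which codes for the DNA-binding factor of Notch signalling, the interval with scores of 211.63 and 50.92 overlapped H3K4me3 in replicate 1 alone and the other overlapped none. The share inside genes was alike with the Alu word, 38.7% (31.5% to 46.3%), and without it, 33.3% (24.5% to 43.6%).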

How the data were processed

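Peak lists from ChIP-seq of U937 cells were used: 2 DEK and 2 H3K4me3 precipitations, each called on its own. The authors aligned reads with Bowtie2 to hg19 and called peaks with MACS 1.4.1, per the labels. The deposited DEK lists give a count of tags per peak, a score (the MACS p-value as -log10, multiplied by 10), the enrichment as a ratio and a false discovery rate in percent; the deposited H3K4me3 lists give positions only. Column meanings follow the MACS format. Whether input chromatin also gives peaks at Alu copies was not analysed here. Alignment and peak calling used default parameters, per the study's methods. Total reads are not in the lists, so the depth of each is unknown.

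DEK peaks were intersected at 1 bp or more (bedtools gave the same 4453 intervals). TSSs (219838 positions) and genes came from GENCODE 44 on GRCh37, which need not be the authors' annotation. 31-mers were counted every 5 bp of an interval against both strands of chromosomes 1 to 22, X and Y. Named intervals are the 10 with the highest lower score, up to 10 with H3K4me3 in both lists, the 5 farthest, the 3 on either side of the limit, and runs; genes are those that hold them or the neighbours. Others named (OTUD7A, KCNIP4, RBPJ) were chosen after their values were seen. Regions are not replicates and each mark has 2 precipitations, so no tests were made; shares have 95% Wilson intervals. The members, lists and words were chosen with earlier results of these data known; the Alu word, in particular, was taken from these intervals, and its name rests on general knowledge of the repeat, with no repeat annotation used. Alternatives were other distance limits, a larger overlap, a higher minimum score, other TSSs, single lists and other windows. Scripts used Python 3.11.15, pandas 2.3.3, NumPy 2.4.6, SciPy 1.17.1 and Numba 0.67.0 and passed 8 of 8 checks on simulated data. Some intervals, genes and sequences are not reported here.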

Additional observations from a re-analysis of the deposited data

How the results depend on the processing

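Of 66 alternative values for 13 results, 34 stayed within the interval of the reported value (for the number of distal intervals, within 1.5 times) and 32 moved. The number of intervals (253) became 16 with a score of at least 100 in both lists, 669 and 87 with limits of 25000 and 100000 bp, 956 with protein-coding TSSs only, and 1354 to 10658 when either DEK replicate was left out and all peaks of the other were taken. The share with H3K4me3 in both lists (7.91%) became 2.99% with an overlap of at least 50% of each DEK peak, 37.5% at the stricter score, 14.3% and 4.6% with limits of 25000 and 100000 bp, 16.6% with protein-coding TSSs, 1.78% to 22.5% without either DEK replicate and 8.3% to 16.6% without either H3K4me3 replicate; the higher values came without DEK replicate 2 and without H3K4me3 replicate 2. The share in genes (36.8%) became 51% and 23% with the lower and the higher limit, 50.9% with protein-coding TSSs and 43.7% to 44.4% without either DEK replicate. The share with high-copy sequence (5.93%) became 0% at the stricter score, 17.8% and 0.791% at medians of 2 and 100 copies, and 0.665% to 10.7% without either DEK replicate. The share with the PU.1 core (10.7%) became 28.1% over whole intervals, which are wider than the window. The median tags in replicate 1 (33) became 28 at the 50% overlap.

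Alternatives for the Alu word were chosen after seeing the data. Its share (64.4%) became 70.6% at the 50% overlap, 18.8% of 16 intervals at the stricter score, 56.2% with the limit of 25000 bp, 51.5% with protein-coding TSSs, 32.8% to 60.1% without either DEK replicate (32.8% without replicate 2), and 58.1% with up to 3 mismatches. Without chromosome 13 it was 67.9%. The cause of these shifts was not tested. No paired analysis was possible because no result comes from a test. The depth of each list is unknown, and its part in which distal peaks were in both lists was not tested.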
